A study of Homo sapiens with 4 samples.

Results

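The 10 catalytically active MAP kinase phosphatase genes, DUSP1, DUSP2, DUSP4, DUSP5, DUSP6, DUSP7, DUSP8, DUSP9, DUSP10 and DUSP16, were chosen from a table of 58735 genes by matching the table's gene identifiers to the symbols of the GENCODE v44 annotation. All 10 were found. RNA-seq was performed on cells labelled NB4, a human acute promyelocytic leukemia line, in 2 control libraries without treatment and 2 libraries of cells treated with GNE-987 at 25 nM over 24 h. This compound links a ligand of BET bromodomain proteins to one of a ubiquitin ligase, so that the bound BET protein is degraded. The comparison asked which genes had other RNA levels with GNE-987 than without it. Nothing states that the 2 libraries of a group came from separate cultures, so the P values measure the spread between these libraries, which may be technical.

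MAP kinases (ERK, JNK and p38) are switched on when an upstream kinase, a MAP2K, phosphorylates a threonine and a tyrosine in their activation loop, and the MAP kinase phosphatases switch them off by removing those phosphates. The family is usually divided into nuclear, inducible enzymes (DUSP1, DUSP2, DUSP4 and DUSP5), cytoplasmic enzymes that prefer ERK (DUSP6, DUSP7 and DUSP9), and enzymes that prefer JNK and p38 (DUSP8, DUSP10 and DUSP16). Several of the genes are transcribed in response to the kinases that their products inactivate, which makes them feedback inhibitors, and DUSP1 is a classical immediate early gene of growth factor and stress signalling.

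Between 12365190 and 19319902 reads per library lay on genes, fewer in each GNE-987 library than in each control library. Mitochondrial genes held 3.77% and 4.57% of the reads in the control libraries and 15.7% and 15.3% with GNE-987, and the part of this difference in the results was not tested. Markers of the labelled cell type were low. Of 10 promyelocytic and granulocytic markers, 3 had a control mean of at least 1 FPKM (fragments per kilobase of transcript, scaled by library size), their summed level was 12.9 and 11.2 FPKM in the control libraries and 39.0 and 37.3 FPKM with GNE-987, and ELANE and CTSG were at 0 in both control libraries. Of 10 erythroid markers 9 passed 1 FPKM in the control libraries, with sums of 323 and 324 FPKM there and 383 and 334 FPKM with GNE-987. The 5 megakaryocytic markers summed to 1.39 and 1.41 FPKM in the control libraries and to 6.33 and 7.76 FPKM with GNE-987, with GP9, PF4 and PPBP at 0 in both control libraries. The 5 lymphoid markers summed to 0.952 and 0.950 FPKM in the control libraries and to 23.7 and 22.1 FPKM with GNE-987, nearly all of it CD79A. The part of these markers in the results was not tested.

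GNE-987 libraries held far more RNA of 3 phosphatase genes, DUSP1, DUSP8 and DUSP2, and the family's make-up shifted towards DUSP1. The 10 genes together had 15.3 and 14.7 FPKM in the control libraries and 94.5 and 94.7 FPKM in the GNE-987 libraries. These sums are on the deposited scaling, where the summed FPKM of all genes was also 2.77 times higher with GNE-987 on average. A gene was called when its unadjusted P value was under 0.05 and its fold change was over 2 or under 0.5. Genes averaging 0.5 FPKM or more in these libraries were tested with limma on log2(FPKM + 0.1), a scale that understates the change of low genes. On the deposited scaling, 33.6% of all 16668 tested genes were called higher and 24.9% lower. Of the 10 phosphatase genes 7 were tested. DUSP1, DUSP2, DUSP7, DUSP8 and DUSP16 were called higher, and DUSP5 and DUSP9 were not called. DUSP2 and DUSP8, with control means of 0 and 0.326 FPKM, reached the limit for testing only through the GNE-987 libraries. Their direction was therefore fixed in advance, and the count of higher calls and the median include them. The direction of any other tested gene with a control mean under 0.5 FPKM was fixed in the same way. In limma 0 of the 7 were called lower, and 0 were lower at an unadjusted P under 0.05, while limma-voom on recovered reads called 1 lower, DUSP5. The median log2 fold change of the 7 tested genes was 1.46, beside 0.17 for all tested genes, and DUSP2, whose fitted value depends on the added 0.1 FPKM, lies above that median also at its bound. DUSP4, DUSP6 and DUSP10 were below the limit for testing. In bulk RNA, fewer cells of a type and less RNA per cell cannot be told apart.

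**Figure D1:**
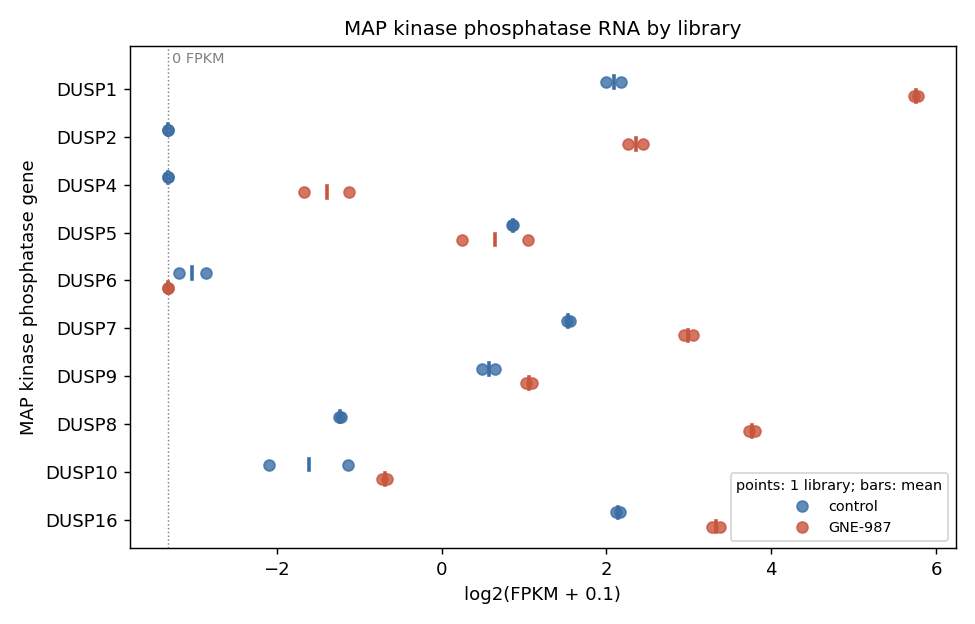
Level of each MAP kinase phosphatase gene as log2(FPKM + 0.1), with 1 point for each library and a vertical bar at the mean of the 2 libraries of a group (blue, control; red, GNE-987); the dotted line marks 0 FPKM. The points of the 2 groups are farthest apart for DUSP1, DUSP2 and DUSP8, those of DUSP5 overlap, and DUSP6 is next to the dotted line in all 4 libraries.

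In the control libraries the order of the levels, per length of transcript, was DUSP16, DUSP1, DUSP7, DUSP5, DUSP9, DUSP8, DUSP10 and DUSP6, with DUSP2 and DUSP4 at 0. The ranges of the 2 control libraries overlapped between DUSP16 and DUSP1 and between DUSP8 and DUSP10, so those neighbours were not separated. With GNE-987 the order was DUSP1, DUSP8, DUSP16, DUSP7, DUSP2, DUSP9, DUSP5, DUSP10 and DUSP4, with DUSP6 at 0, and the neighbours whose ranges overlapped were DUSP9 and DUSP5. DUSP8 moved from the 6th to the 2nd place and DUSP2 from 0 to the 5th place.

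The promoters of DUSP1, DUSP2 and DUSP8 are shown because these 3 genes were called higher under every scaling that was tried. The windows come from RefSeq on GRCh38.p14, reach from 250 bases before to 50 bases after the start of the gene, and are written 5′ to 3′ on the gene's strand. They lie at chr5:172771146-172771445 (DUSP1), chr2:96145391-96145690 (DUSP2) and chr11:1572222-1572521 (DUSP8), all on the minus strand. Capitals mark the cAMP response element TGACGTCA or its half-site TGACG on either strand, the TATA box TATAAA and the E-box CACGTG. In DUSP1 a half-site on the minus strand and the E-box overlap and form a single run of capitals.
DUSP1: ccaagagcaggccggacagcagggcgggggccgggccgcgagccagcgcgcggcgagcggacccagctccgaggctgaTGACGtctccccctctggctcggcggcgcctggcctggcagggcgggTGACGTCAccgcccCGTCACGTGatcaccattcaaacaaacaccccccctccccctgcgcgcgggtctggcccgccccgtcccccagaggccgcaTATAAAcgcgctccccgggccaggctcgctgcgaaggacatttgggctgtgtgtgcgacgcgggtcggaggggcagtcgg
DUSP2: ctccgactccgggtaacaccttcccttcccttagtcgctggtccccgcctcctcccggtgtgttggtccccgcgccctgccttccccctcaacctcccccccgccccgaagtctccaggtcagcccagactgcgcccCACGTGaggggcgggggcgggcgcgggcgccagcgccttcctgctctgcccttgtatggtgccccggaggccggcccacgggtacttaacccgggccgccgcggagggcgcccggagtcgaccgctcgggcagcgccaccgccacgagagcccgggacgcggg
DUSP8: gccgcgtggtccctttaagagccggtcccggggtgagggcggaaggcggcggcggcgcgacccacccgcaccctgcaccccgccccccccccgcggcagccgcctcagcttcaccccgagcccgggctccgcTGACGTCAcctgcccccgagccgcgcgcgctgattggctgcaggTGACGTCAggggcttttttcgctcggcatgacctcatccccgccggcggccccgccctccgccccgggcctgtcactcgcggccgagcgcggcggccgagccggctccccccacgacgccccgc

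A total of 9 motifs were searched on both strands in all 35116 RefSeq windows of 300 bases. Of the 10 phosphatase genes 8 have at least 1 window there, with 10 windows in all. Members are counted below as genes with the motif in any of their windows. The percentages are of windows, so they are not the same measure as the counts of genes. The full cAMP response element, the site known to bind CREB and ATF factors, was in the windows of 2 of these 8 genes, DUSP1 and DUSP8, and in 1.85% of all windows. In DUSP1 it began at position -125 from the start of the gene, and in DUSP8 it was present at -118 and again at -74. DUSP10 held a half-site without the full element, and 24.6% of all windows hold a half-site. The TATA box was found in DUSP1 alone among the 8, at -30, and in 11.5% of all windows. The E-box, a site of MYC and other helix-loop-helix factors, was in DUSP1 at -108 and in DUSP2 at -113, and in 7.26% of all windows. The GC box GGGCGG was in 7 of the 8 genes, DUSP6 being without it, and in 45.0% of all windows. CCAAT, bound by the factor NF-Y, was in DUSP6, DUSP7, DUSP8 and DUSP10 and in 34.6% of all windows. The ETS core CCGGAA (17.2% of all windows), the AP-1 site TGANTCA (7.71%) and the CArG box (1.29%) were in 0 of the 8 genes. G and C made up 73.3% of the DUSP1 window, 75.0% of the DUSP2 window and 78.3% of the DUSP8 window, against a median of 58.7% over all windows. These matches describe letters in a window and not binding.

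Among the nuclear, inducible phosphatases, DUSP1 (MKP-1; chromosome 5, 172768096 to 172771195, minus strand, 4 exons), which acts on p38 and JNK as well as ERK, measured 4.41 and 3.90 FPKM in the control libraries, against 54.9 and 53.1 FPKM in the GNE-987 libraries. These levels correspond to 205 and 174 reads in the control libraries and to 926 and 946 reads with GNE-987. Every GNE-987 library was above every control library. The means were 4.15 ± 0.363 and 54.0 ± 1.25 FPKM (SD, n = 2 each). The log2 fold change was 3.67 (SE 0.0807, 95% interval 3.44 to 3.90, adjusted P = 0.000126 from limma with Benjamini-Hochberg adjustment), a ratio of means of 13.0. DUSP1 was the most abundant phosphatase gene with GNE-987.

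DUSP2 (PAC-1; chromosome 2, 96143169 to 96145440, minus strand, 4 exons), a nuclear phosphatase first described in activated T cells, had no read in either control library and 76 and 91 reads in the GNE-987 libraries. Its levels there were 4.71 and 5.34 FPKM. The groups were separate. Measured against a floor of 3 reads in each control library, DUSP2 was at least 73.0-fold higher with GNE-987 on the deposited scaling, and at least 42.3-fold higher when the libraries were scaled to their read totals. The fitted log2 fold change was 5.68 (SE 0.214, adjusted P = 0.000224 from limma with Benjamini-Hochberg adjustment), and this value depends on the added 0.1 FPKM. The floor covers counting error only.

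DUSP4 (MKP-2), a nuclear phosphatase of ERK and JNK, also had 0 reads in both control libraries, and 13 and 23 reads (0.214 and 0.359 FPKM) with GNE-987. Against the same floor it was at least 15.7-fold higher, or at least 9.09-fold higher by read totals. Its mean was too low for the test, and it was called only when no limit on low levels was set, with an adjusted P of 0.0157 (limma with Benjamini-Hochberg adjustment). DUSP5, a nuclear phosphatase that is specific for ERK, did not follow the other 3 of its class. Its levels were 1.73 and 1.71 FPKM without treatment and 1.97 and 1.08 FPKM after it, so that 1 GNE-987 library lay above and the other below both control libraries. Its log2 fold change was -0.22 (SE 0.315, 95% interval -1.11 to 0.67, adjusted P = 0.558 from limma with Benjamini-Hochberg adjustment). The value was 0.18 without GNE-987 replicate 2 and -0.62 without GNE-987 replicate 1.

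Of the cytoplasmic phosphatases that prefer ERK, DUSP7 (MKP-X; chromosome 3, 52048919 to 52056571, minus strand, 3 exons) had control levels of 2.77 and 2.84 FPKM and GNE-987 levels of 7.56 and 8.18 FPKM. Both GNE-987 libraries were above both control libraries, with a log2 fold change of 1.46 (SE 0.0828, adjusted P = 0.000466 from limma with Benjamini-Hochberg adjustment). The reads behind these levels, 360 and 355 against 357 and 408, were nearly the same in the 4 libraries. The size of the change therefore depends on how the libraries are scaled. The GNE-987 libraries held fewer reads on genes, and by read totals the log2 fold change of DUSP7 was 0.69, which was not called. DUSP9 (MKP-4, on the X chromosome) had 1.47 and 1.30 FPKM without GNE-987 and 1.94 and 2.04 FPKM with it. Its groups did not overlap, but the log2 fold change of 0.49 (SE 0.134, adjusted P = 0.0311 from limma with Benjamini-Hochberg adjustment) was below a fold change of 2. DUSP6 (MKP-3), the best known cytoplasmic feedback inhibitor of ERK, had 4 reads and 1 read in the control libraries and 0 in both GNE-987 libraries. Those counts are at or close to the floor of 3 reads, so no change of DUSP6 could be measured at this depth.

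DUSP8 (M3/6; chromosome 11, 1554051 to 1572271, minus strand, 7 exons), which prefers JNK and p38, was among the low members in the control libraries, at 0.329 and 0.323 FPKM (35 and 33 reads). With GNE-987 it was at 13.1 and 13.8 FPKM (506 and 562 reads). The 2 groups were far apart and each was tight, with means of 0.326 ± 0.00434 and 13.5 ± 0.483 FPKM (SD, n = 2 each). The log2 fold change was 4.99 (SE 0.103, 95% interval 4.70 to 5.28, adjusted P = 0.000119 from limma with Benjamini-Hochberg adjustment), and the ratio of the means was 41.2, above the 13.0 of DUSP1.

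DUSP16 (MKP-7; chromosome 12, 12473282 to 12562863, minus strand, 7 exons), a JNK phosphatase that moves between nucleus and cytoplasm, stood at 4.39 and 4.22 FPKM without treatment and 9.63 and 10.3 FPKM after treatment. The groups did not overlap. The log2 fold change was 1.19 (SE 0.0747, adjusted P = 0.000563 from limma with Benjamini-Hochberg adjustment), while the reads were 579 and 534 in the control libraries and 461 and 522 with GNE-987. Tested against a fold change of 2 and not against 0, DUSP16 was no longer called (adjusted P = 0.0703, limma). DUSP10 (MKP-5), a phosphatase of p38 and JNK, had low levels throughout, 0.134 and 0.357 FPKM without GNE-987 and 0.534 and 0.505 FPKM with it. It rested on 9 and 23 reads against 13 and 13, so its groups were separate in FPKM and overlapped in reads. Fitted with no limit on low levels its log2 fold change was 0.92 (SE 0.434, adjusted P = 0.182, limma with Benjamini-Hochberg adjustment).

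The make-up of the family is not altered by a scaling that applies a single factor to each library, since each share is taken within a library, but quantile normalization is not of that kind. DUSP1 held 28.9% and 26.6% of the summed FPKM of the 10 genes in the control libraries and 58.0% and 56.0% with GNE-987. DUSP8 went from 2.16% and 2.20% to 13.9% and 14.6%. DUSP2 went from 0 to 4.98% and 5.63%. These were the 3 genes of the sum with a larger share in both GNE-987 libraries, apart from DUSP4, which reached 0.227% and 0.379%. DUSP16 held 28.8% in each control library and 10.2% and 10.9% with GNE-987, and DUSP7 went from 18.1% and 19.4% to 8.0% and 8.64%. DUSP9 was at 9.63% and 8.89% in the control libraries and at 2.05% and 2.15% with GNE-987, and DUSP5 at 11.3% and 11.7% and then at 2.08% and 1.14%. By class, the nuclear, inducible genes held 40.2% and 38.3% of the sum in the control libraries and 65.3% and 63.2% with GNE-987. The share of the cytoplasmic genes was 28.0% and 28.3% without and 10.05% and 10.8% with GNE-987. Genes for the JNK and p38 phosphatases had 31.8% and 33.4% in the control libraries and 24.6% and 26.0% with GNE-987, with DUSP8 in the place of DUSP16 as the leading gene of the class.

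**Figure D2:**
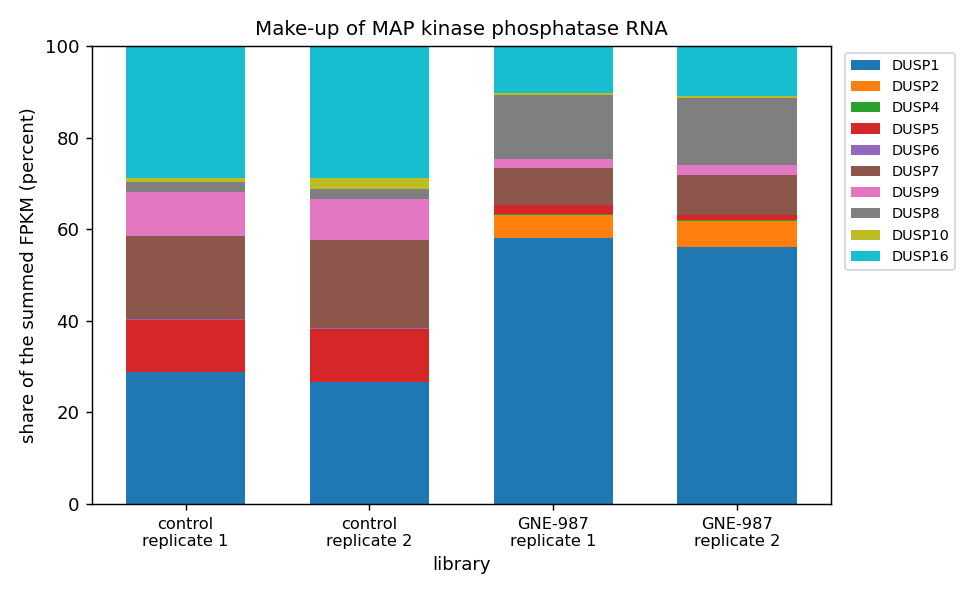
Share of each gene in the summed FPKM of the 10 MAP kinase phosphatase genes (vertical axis, percent), with 1 stacked bar for each library and no error bars. DUSP1 takes 28.9% and 26.6% of the control bars and 58.0% and 56.0% of the GNE-987 bars, and DUSP8 widens from 2.16% and 2.20% to 13.9% and 14.6%.

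How far the phosphatase genes changed depended on the scaling of the libraries. The summed FPKM of all genes was 2.77 times higher in the GNE-987 libraries than in the control libraries on average, so a gene with a constant share of the FPKM sum appears higher on the deposited scaling. Scaling to the total of the recovered reads shifted the GNE-987 libraries against the control libraries by -0.79 on the log2 scale, before 0.1 FPKM was added, and 25.0% of the tested genes were then called higher and 40.0% lower. After quantile normalization these shares were 25.4% and 32.8%, after scaling to the FPKM sum 19.9% and 52.5%, and after scaling to GAPDH 18.2% and 58.4%. GAPDH, a glycolytic enzyme often used as a reference, itself had 398 and 432 FPKM without GNE-987 and 1501 and 1499 FPKM with it.

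Across these scalings DUSP1, DUSP2 and DUSP8 were called higher each time. The log2 fold change of DUSP1 was 3.67 as deposited, 3.38 after quantile normalization, 2.89 by read totals, 2.21 by the FPKM sum and 1.83 by GAPDH. For DUSP8 the range was 3.32 (GAPDH) to 4.99, and for DUSP2 it was 4.61 (quantile normalization) to 5.68. DUSP7 and DUSP16 lost their calls by read totals, with log2 fold changes of 0.69 and 0.42. By GAPDH both were below 0, at -0.36 and -0.63, and by the FPKM sum DUSP7 was at 0.02 and DUSP16 at -0.26. DUSP9 was at -0.25 by read totals, at 0.0040 after quantile normalization and at -0.89 by the FPKM sum, and it was called lower by GAPDH at -1.25. DUSP5 was called lower by the FPKM sum and by GAPDH, at -1.60 and -1.95. The median of all tested genes moved as well, from 0.17 as deposited to -0.57 by read totals, -0.24 after quantile normalization, -1.23 by the FPKM sum and -1.59 by GAPDH. Relative to that median, DUSP1 was higher by 3.43 to 3.62, DUSP8 by 4.49 to 4.91 and DUSP2 by 4.85 to 6.37 on the log2 scale. DUSP7 lay 1.23 to 1.63 above it and DUSP16 0.96 to 1.41, DUSP9 lay 0.25 to 0.34 above it, and DUSP5 was below it each time, by -0.36 to -0.59.

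**Figure D3:**
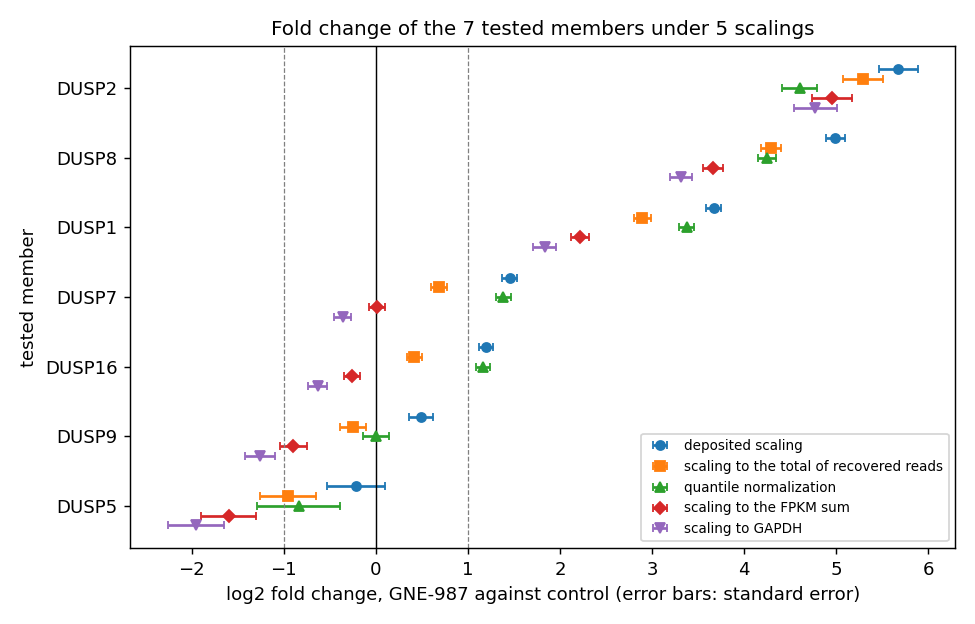
Log2 fold change, GNE-987 over control (horizontal axis) for the 7 tested phosphatase genes under 5 scalings of the libraries, with standard errors as bars; the dashed lines mark fold changes of 0.5 and 2. DUSP2, DUSP8 and DUSP1 stay right of the upper dashed line with each scaling, while DUSP7, DUSP16 and DUSP9 fall on both sides of 0.

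The phosphatase genes were set beside other genes of the MAP kinase pathway. Of 40 listed genes 34 were tested, and 8 were called higher, 12 lower and 14 were not called, with a median log2 fold change of -0.68, where 33.6% of all tested genes were called higher and 24.9% lower. Of the RAS and RAF genes at the top of the cascade, 5 of 6 were called lower, ARAF most, from 19.3 and 17.5 to 4.33 and 4.26 FPKM (log2 fold change -2.07, SE 0.0754). HRAS was not called. Of 6 tested MAP2K genes 2 were higher and 2 lower. MAP2K1, which activates ERK, went from 11.1 and 10.2 to 53.2 and 52.0 FPKM (2.30, SE 0.0621), and MAP2K3, which activates p38, from 3.78 and 4.10 to 16.7 and 17.1 FPKM (2.07, SE 0.0718). Neither MAP2K gene was called when libraries were scaled to the FPKM sum or to GAPDH.

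Among the kinases that the phosphatases act on, 2 of 9 tested genes were called higher and 1 lower. Of all tested genes 33.6% were called higher and 24.9% lower. MAPK13, which encodes p38 delta, went from 0.380 and 0.352 to 10.4 and 11.2 FPKM (log2 fold change 4.55, SE 0.113). Of the Sprouty and SPRED genes, which also restrain ERK by feedback, 1 of 4 tested was called lower, 3 were not called, and the log2 fold changes lay between -1.15 and -0.55. Of 9 tested genes whose transcription ERK induces, 4 were called higher and 3 lower, beside those same shares of all tested genes. PHLDA1 went from 0.0915 and 0.118 to 9.38 and 9.10 FPKM (5.52, SE 0.152) and the immediate early gene EGR1 from 22.4 and 14.2 to 91.1 and 88.2 FPKM (2.32, SE 0.240). FOS, from 0.885 and 0.307 to 3.51 and 2.59 FPKM (2.30, SE 0.504), was no longer called without GNE-987 replicate 1 (2.09) or without GNE-987 replicate 2 (2.51), and EGR1 and FOS were not called by the FPKM sum or GAPDH. FOSL1, an AP-1 subunit, went the other way, from 13.0 and 12.6 to 2.60 and 2.40 FPKM (-2.31, SE 0.0789).

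**Figure D4:**
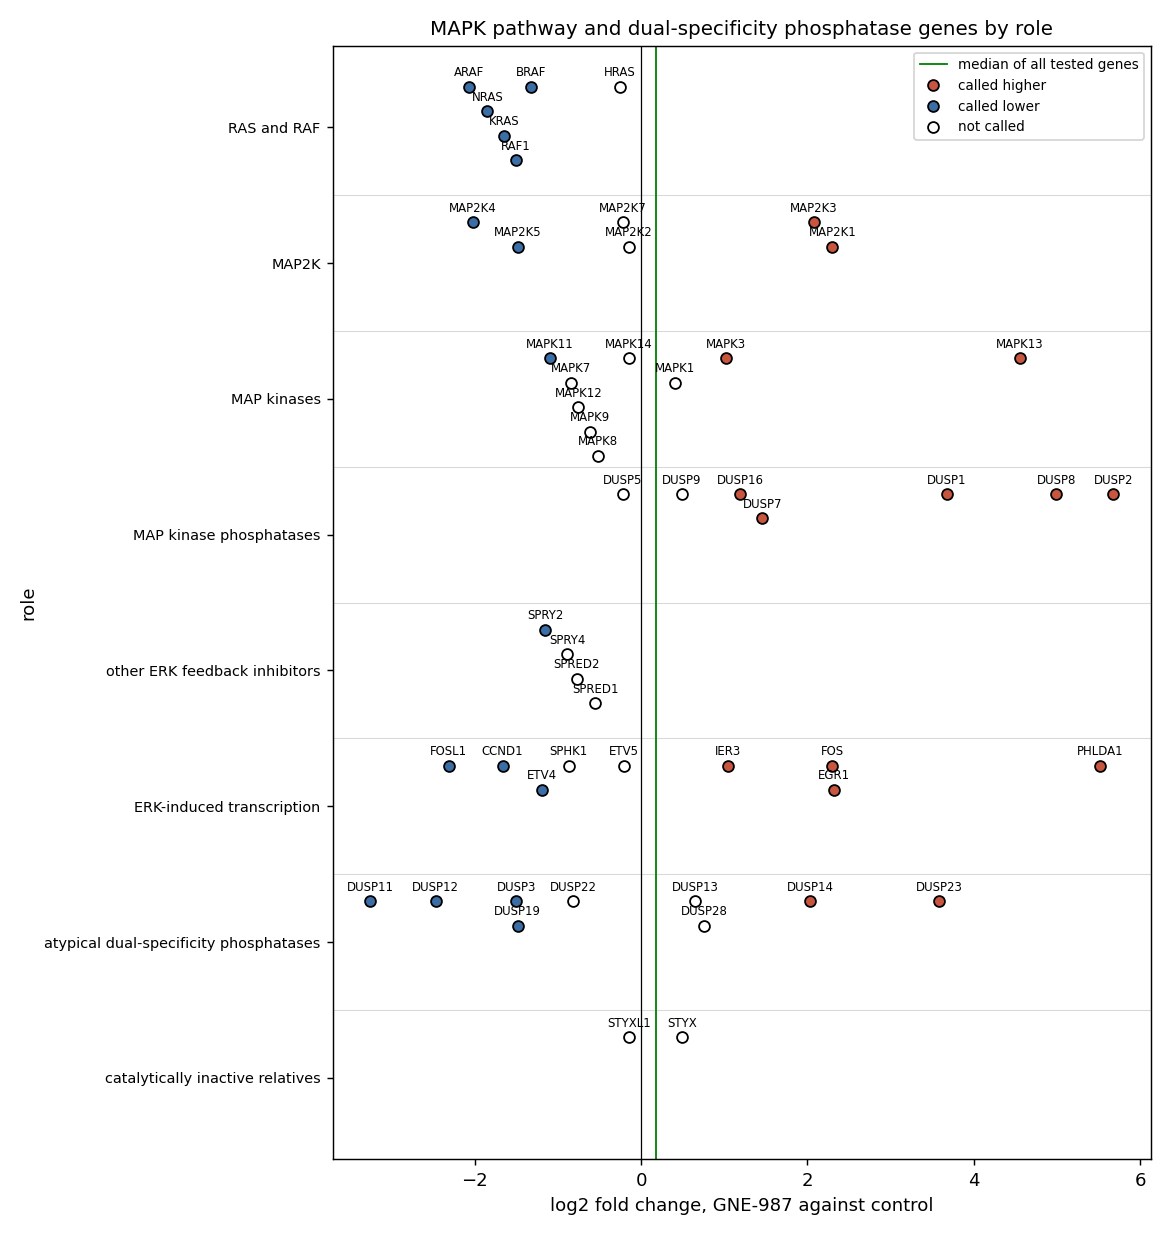
Log2 fold change, GNE-987 over control, on the deposited scaling (horizontal axis) for each tested gene, in a row for its role, with filled points for called genes and open points for others; the vertical offset within a row only separates the labels, and the green line is the median of all tested genes, 0.17. In the row of MAP kinase phosphatases 5 of 7 points are called higher, 5 of 6 RAS and RAF genes are called lower, and the values of DUSP2 and DUSP23, both at 0 in the control libraries, depend on the added 0.1 FPKM. Genes with a control mean under 0.5 FPKM, DUSP2 and DUSP8 among them, were tested only through their GNE-987 levels.

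The remaining dual-specificity phosphatase genes, most of which lack the MAP kinase binding domain or the catalytic residues, gave 2 genes called higher, 4 lower and 5 not called among 11 tested of 17 listed, with a median log2 fold change of -0.14, beside the same 33.6% higher and 24.9% lower of all tested genes. DUSP14 went from 9.58 and 9.75 to 38.6 and 40.9 FPKM (2.03, SE 0.0541), a call lost by the FPKM sum and by GAPDH. Both DUSP12, from 17.2 and 16.9 to 2.85 and 3.15 FPKM (-2.47, SE 0.0788), and DUSP11, a phosphatase of RNA ends, from 4.47 and 4.29 to 0.304 and 0.448 FPKM (-3.25, SE 0.207), were lower. DUSP3 (VHR), which acts on ERK and JNK without a MAP kinase binding domain, went from 4.82 and 5.05 to 1.43 and 1.97 FPKM (-1.50, SE 0.181). DUSP23 was named after its value was seen because it is the other of the 2 called higher. It had no read in either control library, and 6 and 10 reads (0.870 and 1.37 FPKM) with GNE-987. Against the floor of 3 reads per control library it was at least 6.96-fold higher on the deposited scaling and at least 4.04-fold higher by read totals.

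Annotated genes next to the phosphatase genes were read for the same 4 libraries, since the library kit does not mark strand and reads of overlapping genes on opposite strands cannot be told apart. Past the 3′ end of DUSP1, at 4.84 kb and on the same strand, the processed pseudogene ENSG00000213386 had 0 reads in both control libraries and 31.9 and 33.6 FPKM (197 and 219 reads) with GNE-987. Against the floor of 3 reads per control library it was at least 182-fold higher on the deposited scaling and at least 106-fold higher by read totals. Overlapping its far end on the opposite strand, 5.51 kb past DUSP1, the long noncoding RNA gene ENSG00000253295 also had 0 reads in the control libraries and 37.0 and 35.3 FPKM with GNE-987, at least 257-fold higher on the deposited scaling and at least 149-fold higher by read totals, and it was named after its values were seen. A noncoding gene that overlaps DUSP1 itself on the opposite strand, ENSG00000253736, had 4 and 0 reads in the control libraries and 0 in both GNE-987 libraries. Reads of a processed pseudogene can be shared with its parent gene.

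Next to DUSP2, ENSG00000228873, a noncoding gene that ends 0.162 kb before the start of DUSP2 on the same strand, had 0 reads in both control libraries and 16 and 32 reads (9.71 and 18.4 FPKM) with GNE-987, at least 20.8-fold higher on the deposited scaling and at least 12.1-fold higher by read totals. ASTL, which encodes an egg protease and lies 4.67 kb past the 3′ end of DUSP2 on the same strand, likewise had 0 reads in the control libraries and 34 and 82 reads (1.23 and 2.81 FPKM) with GNE-987. ENSG00000213386 and ENSG00000253295 past the end of DUSP1, and ENSG00000228873 and ASTL beside DUSP2, were called higher. Each was at 0 in both control libraries and reached the limit for testing only through the GNE-987 libraries, so it could only be called higher. KRTAP5-AS1, which overlaps DUSP8 on the opposite strand, had 0 reads in the control libraries and 3 and 7 reads with GNE-987, against 506 and 562 reads of DUSP8. Beside DUSP16, BORCS5, 2.05 kb past its 3′ end on the opposite strand, was lower, from 2.50 and 2.57 to 1.06 and 1.34 FPKM (log2 fold change -1.03, SE 0.163), but not called without GNE-987 replicate 1 (-0.87). ENSG00000255670, inside DUSP16 on the opposite strand, was called higher (log2 fold change 3.21, SE 0.664) on 0 and 2 reads in the control libraries and 6 and 5 reads with GNE-987, and it was not called without GNE-987 replicate 1 (3.04) or without GNE-987 replicate 2 (3.37). With a control mean of 0.110 FPKM, it too was tested only through the GNE-987 libraries. The neighbours of DUSP4, DUSP5, DUSP6 and DUSP7 were below 0.5 FPKM in each library.

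**Figure D5:**
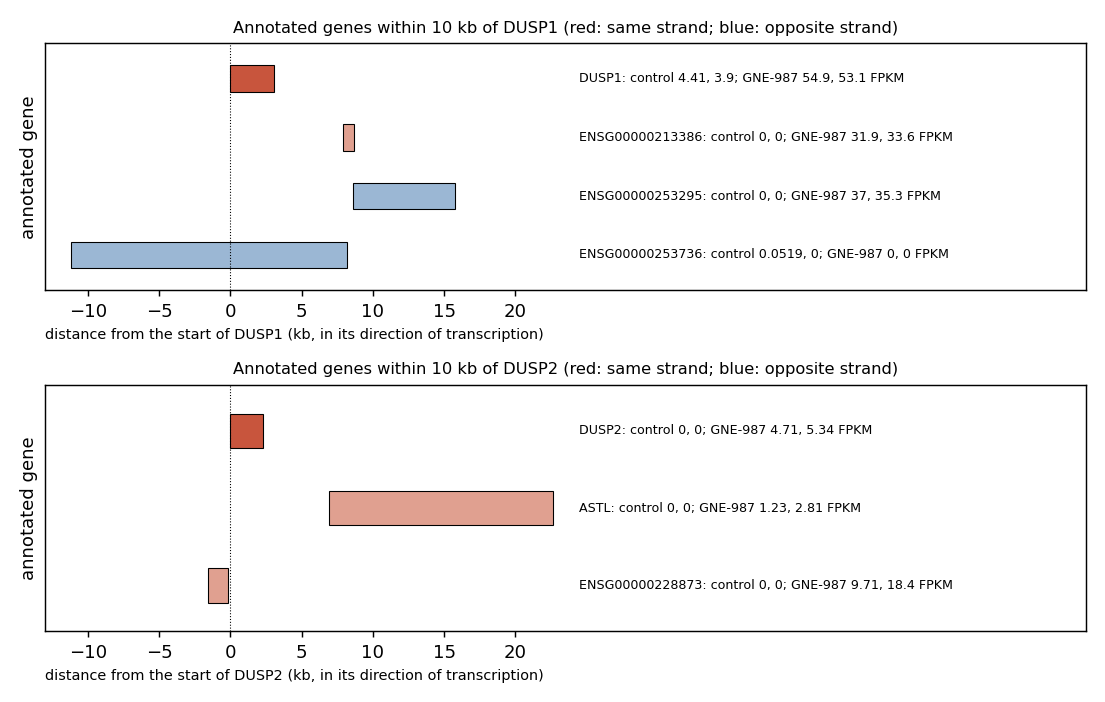
Annotated genes around DUSP1 (upper panel) and DUSP2 (lower panel), drawn to scale by distance in kb from the start of the phosphatase gene in its direction of transcription, red on its strand and blue on the other, with the FPKM of the 4 libraries beside each. ENSG00000213386 and ENSG00000253295 past the end of DUSP1, and ASTL and ENSG00000228873 beside DUSP2, are at 0 in both control libraries and above 0 in both GNE-987 libraries.

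The protein-coding genes whose levels over the 4 libraries were most like those of DUSP1, by the Euclidean distance of log2(FPKM + 0.1) among 10995 genes compared, were SAT1 (distance 0.227), ARRDC3 (0.239) and KLHL15 (0.436). SAT1, which acetylates polyamines, went from 3.83 and 3.91 to 51.8 and 50.7 FPKM. ARRDC3, an arrestin family adaptor, went from 3.79 and 4.16 to 53.2 and 53.6 FPKM, and KLHL15, a cullin adaptor, from 3.79 and 3.91 to 44.8 and 44.7 FPKM. The distance is a description over 4 libraries and takes no account of how many genes rise by a like amount.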

How the data were processed

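RNA-seq values were used from 4 libraries of cells labelled NB4, 2 control and 2 GNE-987, grouped by the sample labels. The authors mapped filtered reads with HISAT (HISAT2 2.0.5 and hg38 in the submitters' processing notes) and deposited FPKM per gene. The counting program and the annotation are not given in the sources used here. The deposited FPKM share a median-ratio scale: the median-ratio factor was 1.01 for each library.

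Of 58735 genes, the 16668 averaging 0.5 FPKM or more were compared on log2(FPKM + 0.1) by limma 3.58.1 under R 4.3.3 (empirical Bayes moderation with an intensity trend), with the thresholds of the study's methods, and p-values were adjusted by Benjamini-Hochberg over all tested genes. The study's count test was not used because the deposited unit is FPKM. Read counts were inferred from the FPKM values. A scaling total was estimated for each library, and a gene length was sought that made the counts whole (tolerance 0.01). Where the annotated exon length did not, the nearest length that did was used. Of 32895 genes above 0, 53.0% were whole at the annotated exon length and the 10 phosphatase genes at another length. For 53 genes no length was found. Floors of 3 reads cover counting error only. Sequences are from RefSeq, with no window for DUSP4 and DUSP5.

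The genes, lists and tests were chosen with earlier results of these data known. Named were all 10 phosphatase genes, GAPDH, up to 8 called genes per list with the largest change at a mean of at least 1 FPKM, adjoining genes within 10 kb, markers against the label, and the 3 genes nearest to DUSP1. The tests were tried on simulated data. Scalings, pseudocounts, filters, tests on recovered reads, a replicate block and left-out libraries were tried as alternatives.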

Additional observations from a re-analysis of the deposited data

How the results depend on the processing

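Calls changed most often with the scaling of the libraries, and the cause was not tested. DUSP1, DUSP2 and DUSP8 were called higher under all alternatives run, and leaving out any 1 library kept 5 phosphatase genes called higher and 0 lower. The 5 calls became 3 under scaling to GAPDH, to the FPKM sum and to read totals and with limma-voom on the recovered reads, and the count of lower calls became 2 with GAPDH, 1 with the FPKM sum and 1 with limma-voom. DUSP7 was at -0.36 with GAPDH, and DUSP16 at -0.63 with GAPDH and -0.26 with the FPKM sum. DUSP9 was at -1.25, -0.89, -0.25 and -0.26 with GAPDH, the FPKM sum, read totals and limma-voom. DUSP5 was called lower with limma-voom, at -1.01, and ranged from -0.62 to 0.18 when 1 library was left out, 0.18 being the value without GNE-987 replicate 2. GAPDH itself was at -0.11 after quantile normalization.

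Over all genes, 5602 higher and 4148 lower calls became 3031 and 9738 with GAPDH and 3320 and 8751 with the FPKM sum. The lower calls were 6667 with read totals, 6782 with limma-voom (4310 higher) and 2647 when tested against 2-fold, and the higher calls were 8757 with no limit on low levels, where more genes were tested. Without 1 library there were 4978 to 5374 higher and 3714 to 4101 lower calls. Of the MAP kinase pathway genes, the 8 higher calls became 2 with GAPDH, 2 with the FPKM sum and 5 against a fold change of 2, and 5 to 7 without 1 library (5 without GNE-987 replicate 1), and the 12 lower calls became 26, 26, 21 and 22 with GAPDH, the FPKM sum, read totals and limma-voom and 12 to 13 without 1 library. Of the other dual-specificity genes, the 2 higher calls became 1 with GAPDH, 1 with the FPKM sum and 1 at a mean of at least 1 FPKM, and the 4 lower calls became 8 with GAPDH and 2 against a fold change of 2. Median-ratio scaling left each value as it was, since the deposited values are already on that scale.

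No pairing by replicate number was seen: the correlation of same-numbered libraries' deviations was 0.0054. With 2 libraries per group this value cannot show that same-numbered libraries were not paired. With a replicate block 5667 genes were called higher and 4186 lower, and no call of a phosphatase gene changed. Depth limits DUSP4, DUSP6 and DUSP10, which had at most 23 reads in any library.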
